A study of Mus musculus with 7 samples.

Results

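The endothelin system genes of the mouse retina were examined in 4 libraries from mice given angiotensin II (Ang II, a peptide hormone that raises blood pressure) and 3 libraries from mice given saline, both by infusion and sampled on day 28. The 7 members were chosen by gene symbol from the 54532 genes of the deposited count table. They are the ligand genes Edn1, Edn2 and Edn3, the receptor genes Ednra and Ednrb, and the converting enzyme genes Ece1 and Ece2. All 7 passed the filter on low counts, which 17078 genes passed. RNA was poly-A selected from whole retina. Both groups carry the same genotype label, which reads WT on the samples, whereas the series title calls the mice ApoE-/-. Apoe had 150 to 406 counts in each of the 7 libraries, which does not settle the genotype. Strain, age, sex, infusion dose and the number of animals behind each library are not given in the sources used here, so p-values measure the spread between these libraries.

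Endothelins are short vasoactive peptides cut out of long precursors. The membrane metalloproteases encoded by Ece1 and Ece2 make the last cut, from the inactive intermediate called big endothelin to the active peptide. The receptor encoded by Ednra, found mainly on vascular smooth muscle and pericytes, drives constriction and responds poorly to endothelin 3, whereas the one encoded by Ednrb binds all of the ligands alike. In the retina Ednrb is known from Müller glia, astrocytes and endothelium, and Edn2 is known in mice as a gene that photoreceptors switch on when injured. Ang II is known to raise Edn1 expression in cultured vascular cells.

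Total counts per library ran from 14655431 to 17563493. In 1 library fewer genes were detected, saline replicate 2 with 21260, against 24024 to 24846 in the other 6 libraries. Rod markers summed to between 32343 and 36051 CPM (read counts scaled to library size, with TMM factors) in Ang II and between 38259 and 40684 CPM in saline, and 0 of 14 rod markers were at 0. Markers of pigment epithelium and melanocytes, cells behind the neural retina, were detected in every library. They summed to 1341 to 2133 CPM in Ang II and 438 to 1226 CPM in saline, with 0 of 14 at 0. Otx2, a listed gene not confined to those cells, was at 222 to 259 CPM in Ang II and 228 to 242 CPM in saline. It held 242 of the 438 CPM in saline replicate 1 and 228 of the 458 CPM in saline replicate 2. The sums thus do not measure those cells alone. Ang II replicate 3 stood apart in genes of reactive glia, as described with Edn2.

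The 3 ligand genes are told apart by sequence even in their most conserved stretch, the 63 bases (21 codons) that encode the active peptide, so these are shown first. In each gene the stretch lies on the plus strand within exon 2 of 5 of the GENCODE M21 transcript (mm10). It is at chr13:42303649-42303711 in Edn1, chr4:120161951-120162013 in Edn2 and chr2:174761749-174761811 in Edn3. Capitals mark the bases that differ from Edn1.
Edn1: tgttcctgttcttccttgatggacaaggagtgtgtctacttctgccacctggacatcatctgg
Edn2: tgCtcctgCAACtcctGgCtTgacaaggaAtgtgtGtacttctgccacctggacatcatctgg
Edn3: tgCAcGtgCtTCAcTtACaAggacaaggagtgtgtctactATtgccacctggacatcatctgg
Edn2 differed from Edn1 at 10 bases in 7 codons and Edn3 at 13 bases in 8 codons, while Edn2 and Edn3 differed from each other at 15 bases. The closing bases of the stretch are the same in all of the ligand genes.

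With edgeR's quasi-likelihood test on all genes, 0 of the 7 members passed an adjusted p of 0.05, and 0% of the 17078 tested genes did. DESeq2 (0.205% of 17058 genes called) and limma-voom (0.668% of 17078) also called 0 members. DESeq2 gave no p for Edn2, so it could not call that member. At an unadjusted p under 0.05 edgeR gave 1 member, Ece2, where 4.62% of all tested genes had such a p. Ece2 was also the 1 member of 7 whose groups did not overlap in either direction, as was so for 5.91% of tested genes. Every Ang II library lay below every saline library, a pattern found in 2.73% of tested genes. The members' median log2 fold change was -0.09 (Ang II over saline, 3 above 0 and 4 below), against -0.0048 over all tested genes.

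**Figure D1:**
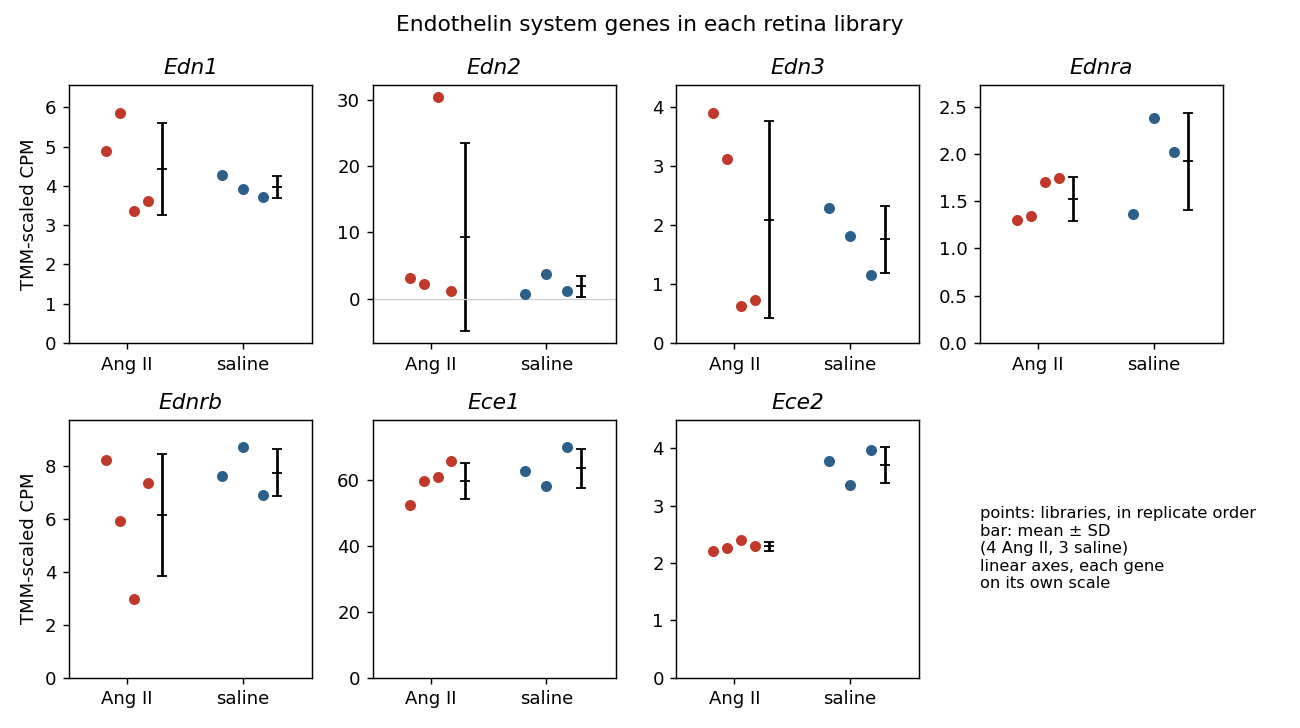
TMM-scaled CPM of each member in 4 Ang II and 3 saline libraries, each gene on its own linear axis, with mean ± SD beside the points. Ece2 is the member whose groups separate (2.21 to 2.40 CPM in Ang II, 3.36 to 3.97 CPM in saline), and Edn2 has 1 Ang II library at 30.5 CPM.

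Edn1 (ENSMUSG00000021367, chromosome 13, 42301476 to 42307990, mm10), the gene of the main vascular endothelin, was at a similar level in both groups. It had 4.88, 5.87, 3.35 and 3.62 CPM in Ang II replicates 1 to 4, against 4.27, 3.93 and 3.73 CPM in saline replicates 1 to 3. Ang II replicates 1 and 2 lay above every saline library and Ang II replicates 3 and 4 lay below every one. The log2 fold change was 0.16 ± 0.25 (SE), with a 95% interval of -0.38 to 0.69 and an edgeR adjusted p of 0.983. Without Ang II replicate 2 it was -0.0078, so its sign rested on that library. These reads cannot be assigned to a strand, but the antisense gene Gm47118 shares just 35 exonic bases with Edn1 (1.64%) and had at most 1 count.

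Edn2 (ENSMUSG00000028635, chromosome 4, 120161206 to 120167360) varied more than any other member, through 1 library. Its values were 3.18, 2.26, 30.5 and 1.09 CPM in Ang II replicates 1 to 4, against 0.743, 3.65 and 1.16 CPM in saline replicates 1 to 3. Ang II replicate 3 alone held 482 counts (exact Poisson 95% interval 439.9 to 527.0, counting error only), whereas the other 6 libraries held 12 to 56 and overlapped between the groups. The log2 fold change was 2.34 ± 1.52 (SE), with a 95% interval of -1.53 to 6.20 and an edgeR adjusted p of 0.982. Without Ang II replicate 3 it was 0.26 ± 0.56. Without Ang II replicate 3 and saline replicate 2 together it was 1.19 ± 0.48 (edgeR adjusted p = 0.885), since saline replicate 2 was the highest saline library. DESeq2 gave no p for Edn2.

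Among the 17078 tested genes, Edn2 ranked 12 from the top by how far Ang II replicate 3 stood above the median of the other 6 libraries, a difference of 4.13 in log2 CPM. Gfap, whose filament protein builds up in reactive glia, had 79.8 CPM in that library and 8.05, 6.84 and 8.03 CPM in Ang II replicates 1, 2 and 4, against 9.23, 9.60 and 9.35 CPM in saline. Serpina3n, a protease inhibitor gene of reactive glia, was at 53.4 CPM there and at 7.20, 8.80 and 3.14 CPM in the other Ang II libraries, against 3.78, 6.73 and 7.15 CPM in saline. Both genes were thus high in the library in which Edn2 was high. In the other 6 libraries Gfap was lower in each Ang II library than in any saline library, and Serpina3n overlapped between the groups. Of 15 tested genes of reactive glia and injury signals, 12 had their highest value in Ang II replicate 3, where 19.6% of all tested genes did. The list was chosen with earlier results of these data known. It holds Gfap and Serpina3n, so the count only describes that library. The summed level of that list was 393.5 to 767.1 CPM in Ang II and 404.0 to 464.5 CPM in saline, with 767.1 CPM in Ang II replicate 3. Of its 16 genes, 0 were at 0 in all 7 libraries. Its part in the Edn2 difference was not tested. In saline replicate 2, the next highest library for Edn2, Gfap was at 9.60 CPM and Serpina3n at 6.73 CPM, both far below Ang II replicate 3.

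Over the 7 libraries, the genes whose log2 CPM followed Edn2 most closely were Bbip1 (Pearson r = 0.984), Fgf2 (0.981), Hook2 (0.977), Senp6 (0.972) and Chm (0.967), out of 11351 genes at a mean of at least 5 CPM. Fgf2, a growth factor gene that Müller glia and photoreceptors raise after retinal injury in rodents, was at 25.6, 23.6, 45.5 and 19.0 CPM in Ang II replicates 1 to 4, against 20.3, 24.6 and 21.3 CPM in saline. Ang II replicate 3 was again the highest library, and the other 6 overlapped. Without Ang II replicate 3 the r of Fgf2 was 0.915 over 6 libraries, and that of Bbip1, which encodes a ciliary BBSome component, was 0.997. With 7 libraries and so many genes such values are common, and 79 genes had an r above 0.9 with Edn2.

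**Figure D2:**
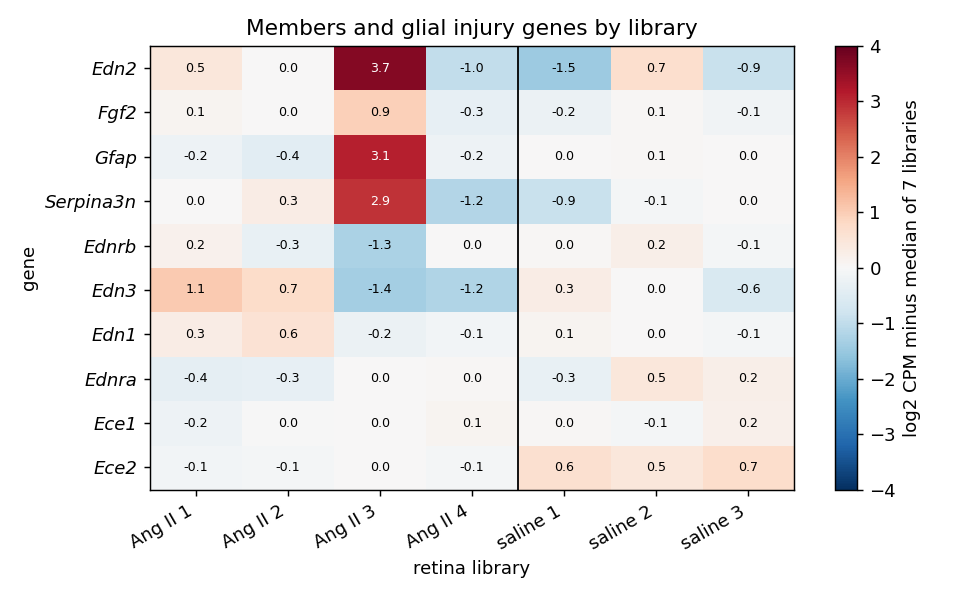
Log2 CPM of each gene in each library minus the gene's median over the 7 libraries, with Ang II libraries left of the line. Edn2, Gfap and Serpina3n lie 3.68, 3.09 and 2.88 above their medians in Ang II replicate 3, where Ednrb and Edn3 lie 1.27 and 1.36 below theirs.

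The 250 bases upstream of the Edn2 start (RefSeq, GRCm38.p6, chr4:120160956-120161205, plus strand) are shown because Edn2 is the member that varied most between libraries, through Ang II replicate 3. Capitals mark the match to the core of the hypoxia response element (ACGTG or GCGTG on either strand).
Edn2 upstream: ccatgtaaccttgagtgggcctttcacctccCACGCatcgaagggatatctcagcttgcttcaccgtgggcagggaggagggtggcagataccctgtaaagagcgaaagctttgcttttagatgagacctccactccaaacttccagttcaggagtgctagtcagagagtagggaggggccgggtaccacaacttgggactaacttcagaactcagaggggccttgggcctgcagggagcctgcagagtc
The match begins 219 bases before the start (-219), and 38.6% of all 32851 promoter windows of this length hold at least 1. Ednrb, Ece2, Fgf2 and some windows of Ece1 held a match to this core as well. Edn1, Edn3, Ednra, Gfap and Serpina3n held none. The AP-1 motif TGANTCA (6.75% of windows) and the STAT motif TTCNNNGAA (7.02%), searched on both strands, had no match in this window, nor in those of Gfap, Serpina3n and Fgf2. A match describes the letters of a window and is not evidence of binding.

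Edn3 (ENSMUSG00000027524, chromosome 2, 174760619 to 174784042), the ligand gene that acts with Ednrb in melanocyte and enteric neuron development, split the Ang II libraries. It had 3.91, 3.12, 0.632 and 0.724 CPM in Ang II replicates 1 to 4, against 2.29, 1.82 and 1.16 CPM in saline replicates 1 to 3. Ang II replicates 1 and 2 lay above every saline library and Ang II replicates 3 and 4 below every one, the same split as for Edn1. The log2 fold change was 0.26 ± 0.60 (SE), with a 95% interval of -1.08 to 1.596 and an edgeR adjusted p of 0.986. It was -0.23 without Ang II replicate 1, 0.012 without Ang II replicate 2, 0.56 without Ang II replicate 3, 0.55 without Ang II replicate 4, 0.51 without saline replicate 1 and 0.039 without saline replicate 3. Counts were low, from 10 to 69 per library. Edn1 and Edn3 had a Pearson r of 0.88 and a Spearman rank correlation of 0.96 over the 7 libraries, a description of libraries that share their RNA and depth, and r was 0.84 without Ang II replicate 3. This r was the highest of all pairs of members, so it is a selected value. For Edn1 the lower side of the split lay within counting error. Ang II replicates 3 and 4 held 53 and 60 counts, against 69, 56 and 61 in saline replicates 1 to 3. The exact Poisson 95% interval was 45.8 to 77.2 for the 60 counts and 46.7 to 78.4 for the 61.

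Because of Edn2, the make-up of ligand transcripts differed most in 1 library. On the scale of CPM per kilobase of gene length, Edn2 made up 40.2%, 30.6%, 92.4% and 28.4% of the summed ligand level in Ang II replicates 1 to 4, against 16.6%, 52.3% and 28.2% in saline replicates 1 to 3. Edn1 made up 42.2%, 54.3%, 6.94% and 64.8% in Ang II, against 65.2%, 38.5% and 61.8% in saline. Edn1 was therefore the leading ligand transcript in 5 libraries, and Edn2 in Ang II replicate 3 and saline replicate 2. Edn3 was the smallest share in 6 of 7 libraries, at 0.681% to 17.6% in Ang II and 9.29% to 18.2% in saline, and in saline replicate 1 it lay above Edn2. The summed ligand level was 5.40, 5.05, 22.6 and 2.61 CPM per kilobase in Ang II, against 3.06, 4.77 and 2.82 in saline.

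**Figure D3:**
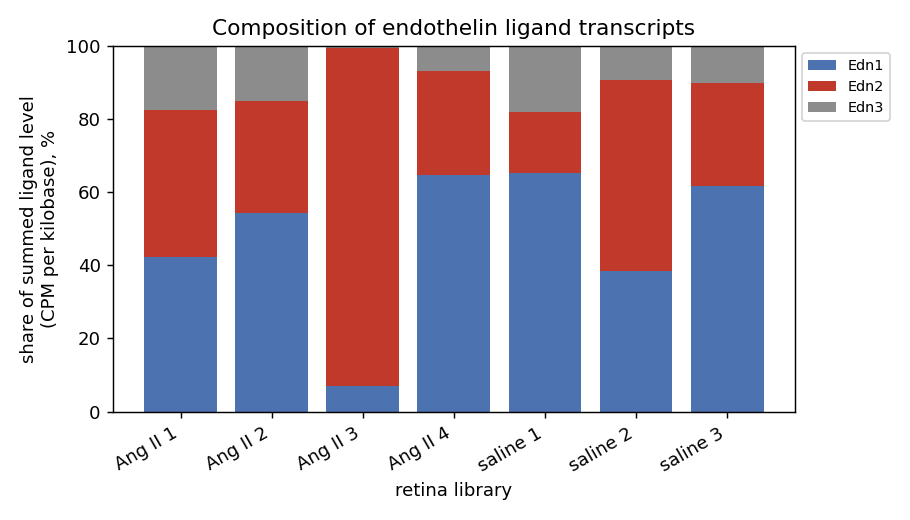
Share of each ligand gene in the summed level of Edn1, Edn2 and Edn3 (CPM per kilobase, %) in each library, Ang II at the left and saline at the right. Edn2 takes 92.4% in Ang II replicate 3, and 16.6% to 52.3% in the other 6 libraries.

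Ednrb (ENSMUSG00000022122, chromosome 14, 103814625 to 103844402), the receptor gene known from glia and endothelium, was lowest in the library in which Edn2 was highest. It had 8.22, 5.93, 2.97 and 7.36 CPM in Ang II replicates 1 to 4, against 7.62, 8.69 and 6.91 CPM in saline replicates 1 to 3. The opposed pattern of Edn2 and Ednrb rested on 1 library. Their Pearson r was -0.79 over the 7 libraries (Spearman -0.11) and 0.31 without Ang II replicate 3. In Ang II replicate 3 Ednrb lay 1.30 in log2 CPM below the median of the other libraries (-1.30). This ranked 98 from the bottom of the 17078 tested genes, and Edn3 ranked 47 from the bottom (-1.52). The groups overlapped in Ednrb, and its log2 fold change was -0.33 ± 0.28 (SE), with a 95% interval of -0.93 to 0.26 and an edgeR adjusted p of 0.982. It was -0.51 without Ang II replicate 1, -0.10 without Ang II replicate 3 and -0.018 without Ang II replicate 3 and saline replicate 2. Of the 12 Müller glia markers, 5 were likewise lowest in Ang II replicate 3 and 3 were highest there, and 17.5% of all tested genes were lowest there. That list summed to 4762 to 5626 CPM in Ang II, where 4762 CPM was replicate 3, and to 4785 to 5676 CPM in saline, with 0 of 12 genes at 0. Of the 7 astrocyte markers, 2 were lowest and 2 highest in Ang II replicate 3. Of the 13 endothelial markers, 1 was lowest and 2 were highest there. In retina samples of this kind, fewer cells of a type and less RNA per cell cannot be told apart.

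Ednra (ENSMUSG00000031616, chromosome 8, 77663031 to 77724464), the constrictor receptor gene of mural cells, was the member with the fewest counts, 22 to 34 per library. It was at 1.30, 1.34, 1.71 and 1.75 CPM in Ang II replicates 1 to 4, against 1.36, 2.38 and 2.02 CPM in saline replicates 1 to 3. Saline replicate 1 lay among the Ang II libraries, and the other saline libraries lay above all of them. The log2 fold change was -0.33 ± 0.33 (SE), with a 95% interval of -1.04 to 0.38 and an edgeR adjusted p of 0.982, and it was -0.15 without saline replicate 2, -0.52 without saline replicate 1 and -0.088 with limma-voom. Pericyte and smooth muscle markers summed to 137.2 to 159.8 CPM in Ang II and 134.5 to 143.9 CPM in saline, with 0 of 10 genes at 0 in all 7 libraries. The 159.8 CPM was Ang II replicate 3, in which 1 of these markers, Des, was at 21.9 CPM. In the other libraries Des was at 1.68 to 3.53 CPM. The gene 4933431K23Rik on the opposite strand shares 91 exonic bases with Ednra (1.66%) and had at most 1 count.

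Per kilobase, Ednrb exceeded Ednra in every library. The ratio of Ednrb to Ednra was 8.09, 5.66, 2.23 and 5.40 in Ang II replicates 1 to 4, against 7.18, 4.68 and 4.40 in saline replicates 1 to 3. Ang II replicate 3 had the lowest ratio and Ang II replicate 1 the highest, so the groups overlapped.

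Ece2 (ENSMUSG00000022842, chromosome 16, 20629828 to 20646485), the converting enzyme gene expressed mainly in neural tissue, had lower values in every Ang II library. It was at 2.21, 2.26, 2.40 and 2.29 CPM in Ang II replicates 1 to 4, against 3.78, 3.36 and 3.97 CPM in saline replicates 1 to 3. The Ang II libraries lay close together and below the lowest saline library. The log2 fold change was -0.69 ± 0.25 (SE), with a 95% interval of -1.22 to -0.17, and it did not pass over all genes (unadjusted p = 0.0130, edgeR adjusted p = 0.982). DESeq2 gave -0.69 ± 0.29 (adjusted p = 0.874) and limma-voom -0.72 ± 0.21 (adjusted p = 0.116).

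Across all of the alternatives, including each library left out, the Ece2 log2 fold change stayed between -0.78 and -0.63, with adjusted p of 0.116 to 0.9998. The counts behind it were 39, 37, 38 and 38 in Ang II, against 61, 48 and 65 in saline. The libraries nearest to each other in CPM were Ang II replicate 3, whose 38 counts have an exact Poisson 95% interval of 26.9 to 52.2, and saline replicate 2, whose 48 counts have one of 35.4 to 63.6, and these intervals overlap. The 2937 bases that Ece2 shares with the read-through gene Gm49333 on the same strand make up 57.5% of its exonic length. Gm49333 was listed at 0 in all 7 libraries, and the counting rule for such reads is not given in the sources used here, so the Ece2 values may leave out shared exons and its level is uncertain. The summed pigment epithelium and rod marker levels also separated the groups, and their part in the Ece2 difference was not tested.

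Ece1 (ENSMUSG00000057530, chromosome 4, 137862237 to 137965229), the main converting enzyme gene, was the member with most counts, 830 to 1145 per library, and the one measured most closely. It was at 52.3, 59.8, 60.9 and 65.8 CPM in Ang II replicates 1 to 4, against 62.9, 58.2 and 70.0 CPM in saline replicates 1 to 3. The groups overlapped, with a mean of 59.7 ± 5.57 CPM over the 4 Ang II libraries and of 63.7 ± 5.94 CPM over the 3 saline libraries (SD). The log2 fold change was -0.09 ± 0.10 (SE), with a 95% interval of -0.31 to 0.13 and an edgeR adjusted p of 0.982. It was -0.013 without saline replicate 3, -0.035 without Ang II replicate 1, -0.14 without Ang II replicate 4 and -0.16 without saline replicate 2.

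The ratio of Ece1 to Ece2 per kilobase was 22.8, 25.5, 24.4 and 27.7 in Ang II replicates 1 to 4, against 16.04, 16.7 and 17.0 in saline replicates 1 to 3. The groups did not overlap in this ratio, as they did not in Ece2 itself, and its absolute size carries the uncertainty of the Ece2 level.

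**Figure D4:**
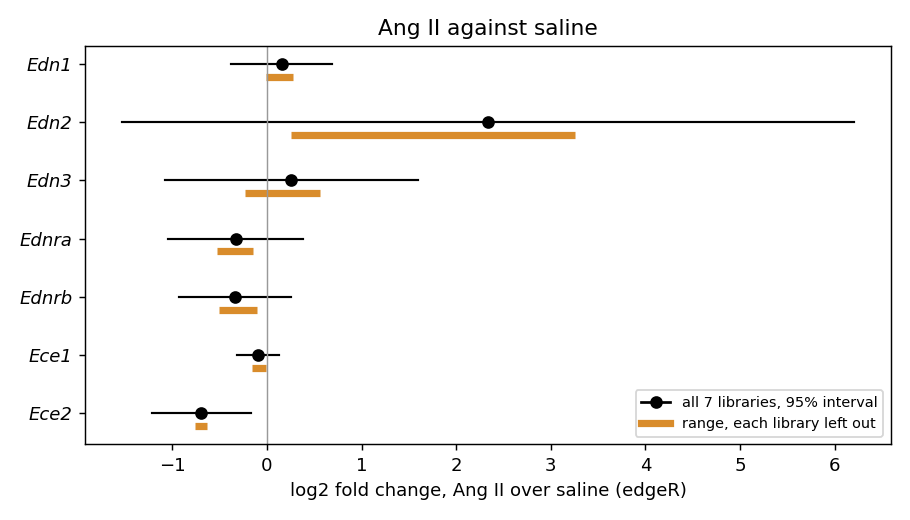
Log2 fold change of each member, Ang II over saline, from edgeR on all 7 libraries with its 95% interval (black), and the range when each library was left out in turn (orange). The interval of Ece2 (-1.22 to -0.17) lies below 0 before adjustment over all genes, and the widest is that of Edn2.

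Levels between genes were set side by side per kilobase of the deposited gene length. By the median of the 7 libraries the order was Ece1 (11.5 CPM per kilobase), Edn1 (1.84), Ednrb (1.73), Edn2 (1.55), Ece2 (0.470), Edn3 (0.443) and Ednra (0.312). Ece1 ran from 9.88 to 13.2 and lay above all other members in every library but Ang II replicate 3, where Edn2 reached 20.8. Edn1 (1.57 to 2.74), Ednrb (0.697 to 2.04) and Edn2 (0.508 to 20.8) overlapped, so their order is not settled by these libraries. Ece2 (0.433 to 0.777), Edn3 (0.154 to 0.951) and Ednra (0.238 to 0.435) formed the lower part, in which Ece2 overlapped Edn3 and Edn3 overlapped Ednra. The ranges of Ece2 and Ednra overlapped by a narrow margin, but only between different libraries, since Ece2 lay above Ednra within every library. Over the 2173 exonic bases that Ece2 does not share, its level was 1.02 to 1.83, above Edn3 and Ednra in every library. The order of medians was the same on that length.

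**Figure D5:**
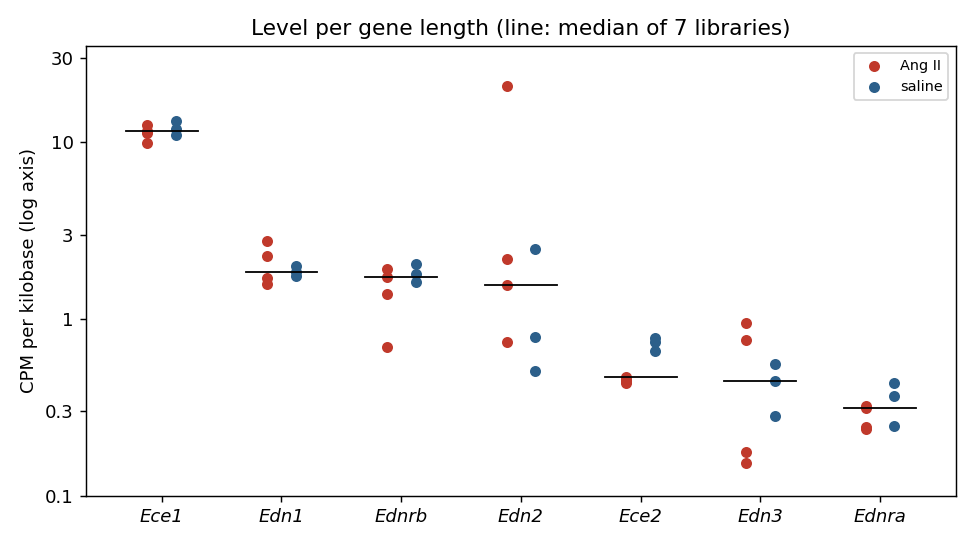
Level of each member in CPM per kilobase on a log axis, for Ang II and saline libraries, ordered by the median of the 7 libraries (line). Ece1 lies near 11.5, Edn1, Ednrb and Edn2 have medians between 1.55 and 1.84, and Ece2, Edn3 and Ednra lie below 1.

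Of 38 other genes of endothelin processing and signalling, 37 were tested and 0 passed in either direction with edgeR, and 0 had an unadjusted p under 0.05 (4.62% of all tested genes did). Their median log2 fold change was -0.0068, with 16 above 0 and 21 below. The groups overlapped in each of the 37, whereas they did not overlap in 5.91% of all tested genes. DESeq2 and limma-voom called 0 of them as well. Kel, which encodes a metalloprotease able to process endothelin 3, was at 0 in every library and was not tested.

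Among the 7 tested genes of peptide processing and breakdown, Mme, which encodes the endothelin-degrading protease neprilysin, had the smallest p. It was at 2.10, 3.12, 2.34 and 1.63 CPM in Ang II replicates 1 to 4, against 1.30, 1.75 and 1.28 CPM in saline replicates 1 to 3, with a log2 fold change of 0.67 ± 0.33 (SE). Only Ang II replicate 4 fell within the saline range. Pcsk5 (0.18 ± 0.30) and Furin (0.03 ± 0.11), which encode proprotein convertases of the kind that cut endothelin precursors, followed, and both changed sign under some alternatives.

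The 8 genes of G protein alpha subunits had log2 fold changes of -0.09 to 0.18, of which the highest was that of Gnas (0.18 ± 0.39), named after its values were seen. Gnas was at 28.3 CPM in saline replicate 2, against 73.8 and 75.7 CPM in saline replicates 1 and 3 and 52.1 to 81.1 CPM in Ang II. Among the 8, the genes of smallest p were Gnai3 (0.16 ± 0.10), Gnaq (0.11 ± 0.10) and Gna12 (-0.09 ± 0.10). Gnaq, which encodes the subunit that links endothelin receptors to phospholipase C, averaged 79.4 ± 7.68 CPM over the 4 Ang II libraries and 73.3 ± 4.48 CPM over the 3 saline libraries (SD), a difference within the spread. The 13 effector genes ran from -0.21 to 0.23. Rock2, a kinase gene of smooth muscle contraction, was at 0.23 ± 0.13, and the inositol trisphosphate receptor genes Itpr1 and Itpr2 were at 0.16 ± 0.10 and -0.19 ± 0.14. Single libraries moved these values. Rock2 was at 0.12 without Ang II replicate 3, 0.15 without saline replicate 3 and 0.37 without saline replicate 2. Itpr1 was at 0.093 without Ang II replicate 4, and Itpr2 at -0.027 without saline replicate 2.

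The 9 genes of receptor regulation were all near 0, between -0.13 and 0.01, with 8 of 9 below 0. Grk2, a kinase gene that desensitises G protein-coupled receptors, was at -0.13 ± 0.10, and the GTPase-accelerating genes Rgs4 and Rgs2 were at -0.08 ± 0.12 and -0.10 ± 0.15. Adjusted p with edgeR were 0.982 to 0.991 for the 12 genes of these lists named with values.

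For the other members, the genes of most similar pattern over the 7 libraries had Pearson r of 0.950 to 0.984. They were Mrps18b, Mfsd2b and Twsg1 for Edn1, Mad2l1, Myo6 and Map2 for Edn3, and Itga7, Sntg1 and Srd5a3 for Ednra. For Ednrb they were Bcor, Rybp and Ints4, for Ece1 Eif3b, Map2k2 and Sez6l, and for Ece2 Vti1b, Clstn1 and Lap3. Itga7, an integrin gene of muscle-type cells, was at 0.971 with Ednra, and Bcor, a corepressor gene, at 0.984 with Ednrb. Between 17 and 111 genes per member had an r above 0.9.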

How the data were processed

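The authors deposited raw read counts by gene, in whole numbers and without normalization, with 1 column per library. CASAVA, HISAT2 (2.0.5), featureCounts (1.5.0-p3) and mm10 are named in the submitters' processing notes. The annotation release, strand setting and rule for shared reads are not given in the sources used here, and per the labels' protocols the libraries carry no strand mark. Columns were matched by sample description, with 0 unmatched. The deposited gene length, in bases, served for levels per kilobase.

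Counts were tested with edgeR 4.0.16 (R 4.3.3; filterByExpr, TMM, robust quasi-likelihood, group as the sole term, Benjamini-Hochberg over all tested genes, two-sided, threshold 0.05). Each SE was derived from the log2 fold change and its F statistic. Log2 CPM used a prior count of 2. DESeq2 1.42.0, limma 3.58.1 (voom with quality weights), other scalings and filters, libraries left out and a replicate block were alternatives. The steps were tested on simulated data. Exonic overlaps came from GENCODE M21.

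The members, lists and motifs were chosen with earlier results of these data known. Named genes were all members, the 3 of smallest p in each pathway list, the 3 genes (5 for Edn2) of highest Pearson r with each member at a mean of at least 5 CPM, Gfap and Serpina3n. Of the rod markers, 1 is not reported here.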

Additional observations from a re-analysis of the deposited data

Results flagged for a closer look

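Of 30 values screened in the 4 Ang II libraries, 6 had a sample far from the others by Dixon's 95% criterion, which chance meets in about 1 in 20 groups. They are not independent, since Gfap and Serpina3n were chosen with their values in Ang II replicate 3 known and both composite values contain Edn2, so no rate is read from their number. In Ang II replicate 3, Edn2 was at 30.5 CPM (next 3.18), Gfap at 79.8 CPM (next 8.05) and Serpina3n at 53.4 CPM (next 8.80). In the same library the ratio of Edn2 to Edn1 per kilobase was 13.3 (next 0.953) and the summed ligand level was 22.6 CPM per kilobase (next 5.40), both of which follow from Edn2. Gnaq was low in Ang II replicate 1, at 68.0 CPM (next 82.1).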

How the results depend on the processing

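The count of members called (0) and of pathway genes called (0) was the same under all 15 alternatives, although over all genes edgeR's 0 calls became 35 with DESeq2, 114 with limma-voom, 98 when every gene with at least 1 count entered, 117 without saline replicate 3 and 57 with the replicate block. Edn2, Ednra, Ednrb, Ece1 and Ece2 kept their sign in each. The DESeq2 count of members leaves out Edn2, for which it gave no p. With each library left out, log2 fold changes ran from -0.0078 to 0.27 for Edn1 and from -0.23 to 0.56 for Edn3 (0.58 without Ang II replicate 3 and saline replicate 2), and among pathway genes from -0.047 to 0.42 for Pcsk5, -0.065 to 0.096 for Furin, -0.17 to 0.02 for Rgs4 (0.020) and -0.20 to 0.03 for Rgs2 (0.026). Without a change of sign, they ran from -0.52 to -0.15 for Ednra, -0.51 to -0.10 for Ednrb, -0.16 to -0.013 for Ece1, 0.11 to 0.24 for Gnai3, 0.073 to 0.18 for Gnaq, -0.14 to -0.045 for Gna12 and -0.21 to -0.078 for Grk2. Signs also turned with limma-voom (Pcsk5 -0.17, Furin -0.11, Rgs2 0.021), without Ang II replicate 3 and saline replicate 2 (Furin -0.14, Rgs2 0.051) and with the replicate block (Pcsk5 -0.047). The causes were not tested. Of 23 genes listed as most like a member, 3 stayed in the lists without Ang II replicate 3. The order of the 7 levels was the same with library size alone and on unshared exon length, a setting chosen after seeing the data.

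The groups share replicate numbers 1 to 3, but same-numbered libraries did not deviate together (correlations -0.069, -0.021 and 0.046 over 17078 genes), and 0 of 3 correlated best with its own number. With the number as a block over 6 libraries, Ece2 was at -0.69 and Ednrb at -0.52, and 0 members were called. Counts of 10 to 69 per library limit Edn3, Ednra and Ece2, as do counts of 12 to 56 for Edn2 outside Ang II replicate 3.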
